A study of Homo sapiens with 12 samples.

Results

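The zinc finger genes of human chromosome 19 were taken as the protein-coding genes of that chromosome whose symbol is ZNF followed by a number. The RefSeq gene table for GRCh38.p14 held 246 of them among 19974 protein-coding genes of chromosomes 1 to 22 and X. A further 4 read-through or divergent symbols were left out. The cells were RPMI 8226, an established line from a multiple myeloma, a cancer of plasma cells. The cells held a scramble control or were knocked out for CEBPB, which encodes C/EBPβ, a transcription factor. Each genotype was given DMSO or 10 µM dexamethasone, a synthetic glucocorticoid, for 2 h, with 3 libraries in each of the 4 groups. Acetylation of histone H3 at lysine 27 (H3K27ac) marks active promoters and enhancers and was mapped with CUT&RUN, in which an antibody directs a nuclease to cut out the marked chromatin. By its title, the study asked whether enhancers respond differently to the drug once C/EBPβ is lost. The labels do not say whether the knockout cells were 1 clone or a pool, and do not state that libraries of the same group were separate cultures. The p-values therefore measure only the spread between these libraries, which may be technical.

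Most of these genes encode proteins with an array of C2H2 zinc fingers, most of which contact DNA, and many also carry a KRAB domain. The KRAB domain recruits the scaffold TRIM28, which brings the histone H3K9 methyltransferase SETDB1 and silences bound sequences, many of them derived from transposable elements. The family grew by tandem duplication, so that its genes lie in clusters of related neighbours. H3K27ac at these genes reports on the activity of the genes themselves, not on the sites their proteins bind.

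The measure used throughout is the covered length: the number of base pairs (bp) within 5 kb of either end of a gene that lay under a deposited H3K27ac peak. It records the presence and width of peaks, not their height. Each library held 41164 to 56421 peaks that covered 48.0 to 66.4 Mb, and the depth of sequencing is unknown, since a peak list carries no read counts. Peaks lay at 11 of 12 plasma cell marker genes in all 12 libraries. Of the markers of other cells, LYZ (myeloid), MS4A1 and PAX5 (mature B cell), TRAT1 (T cell), and COL1A2 and DCN (stromal) were listed at 0 in all of them. Other genes of these lists were covered throughout: 2 of 6 for T cells, 2 of 6 for myeloid cells, 2 of 6 for mature B cells and 4 of 6 for stromal or epithelial cells. At CEBPB itself the covered length was 3178 ± 56 bp (SD, n = 6) in scramble and 3248 ± 154 bp (n = 6) in knockout libraries, so the mark does not check the deletion. The windows of 117 of the 246 genes touched those of another and merged with them, leaving 168 separate regions. Neighbouring genes are therefore not independent, and 12 covered genes had exactly the same values as another. In bulk libraries, a peak carried by fewer cells and a weaker peak in every cell cannot be told apart.

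H3K27ac marked most of the family in every library. Of the 246 genes, 186 (75.6%) had a covered base in all 12 libraries, 31 in 1 to 11 and 29 (11.8%) in none. The share covered in all 12 was 66.4% among the 1201 other protein-coding genes of chromosome 19, 74.1% among the 263 ZNF-numbered genes of other chromosomes and 61.8% among all genes. The covered lengths were short. Their median over the 246 genes was 996 bp, against 1540 bp for the other genes of chromosome 19, 1205 bp for the ZNF-numbered genes elsewhere and 1260 bp for all genes. Each scramble library with DMSO had peaks at 208 of the 246 genes, and those with dexamethasone at 202 to 206. Knockout libraries had peaks at 198 to 205 genes with DMSO and at 194 to 201 with dexamethasone. The differences in these counts were not tested. Together the peaks in the windows of the family covered 237.4 ± 10.6 kb (SD, n = 3) in scramble cells with DMSO and 227.1 ± 6.5 kb with dexamethasone. In knockout cells they covered 230.9 ± 7.5 kb with DMSO and 226.5 ± 3.4 kb with dexamethasone. The ranges of this summed length overlapped between the 4 groups.

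**Figure D1:**
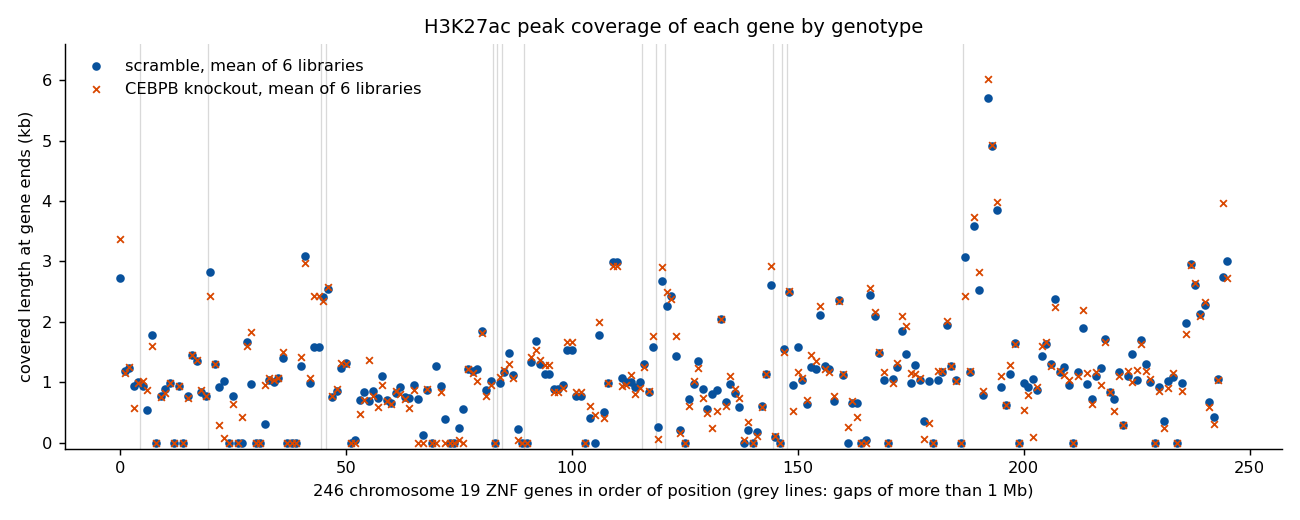
Covered length at the ends of each of the 246 genes in kb, in order of position on chromosome 19. Filled circles are means of the 6 scramble libraries and crosses are means of the 6 knockout libraries. At most positions the symbols lie on each other, and ZNF581 and ZNF580 stand highest.

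The mark sat at the start of the gene. Strand was known for 190 genes longer than 10 kb, for which the windows at the start and the other end do not meet. In all 12 libraries, 140 of them (73.7%) were covered at the start and 28 (14.7%) at the other end. For the other genes of chromosome 19 of that length the shares were 66.6% and 33.9% of 587. Coverage at the start in every library and none at the other end in any was found at 108 of the 190 genes, and the opposite at 1. The share of genes under a peak reached 74.9% at 150 bp downstream of the start and was 1.97% and 1.62% at the far edges of the window. The strongest peak of a covered gene was narrow and high. Its median fold enrichment, the authors' value for each peak, was 5.51 to 6.38 in the 12 libraries, against 4.26 to 4.68 at the other genes of chromosome 19. Its median width was 952 to 1032 bp against 1305 to 1396 bp. These comparisons of gene sets are descriptions, since neighbouring genes share windows and peaks.

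**Figure D2:**
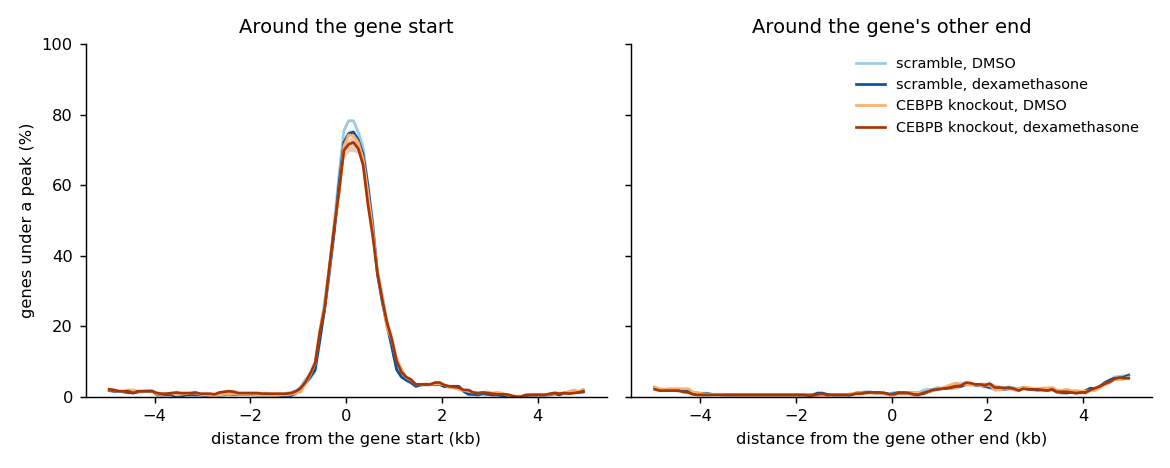
Share of the 190 stranded genes longer than 10 kb that lay under a peak, in percent, by distance in kb from the gene start (left) and the other end (right). Lines are means of 3 libraries of a group and bands their lowest to highest library. All 4 groups rise to a single maximum just downstream of the start and stay low around the other end.

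Promoter sequences of 179 of the 246 genes could be read from RefSeq (GRCh38.p14), where the listed start was the outer end of the gene. A further 30 genes had no entry and 37 had a start elsewhere, among them ZNF43 and ZNF730. The 6 promoters shown belong to the genes with the greatest differences between the genotypes among those with a usable entry. They are printed 5′ to 3′ over the 250 bases before the start, with CCAAT, its reverse complement ATTGG, or the longer stretch TCCAATCAG in capitals.
ZNF835: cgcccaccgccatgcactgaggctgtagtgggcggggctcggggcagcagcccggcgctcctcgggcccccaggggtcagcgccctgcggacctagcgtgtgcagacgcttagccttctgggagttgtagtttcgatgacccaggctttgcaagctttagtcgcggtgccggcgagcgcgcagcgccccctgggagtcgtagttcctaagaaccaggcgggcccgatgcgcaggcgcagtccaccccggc
ZNF441: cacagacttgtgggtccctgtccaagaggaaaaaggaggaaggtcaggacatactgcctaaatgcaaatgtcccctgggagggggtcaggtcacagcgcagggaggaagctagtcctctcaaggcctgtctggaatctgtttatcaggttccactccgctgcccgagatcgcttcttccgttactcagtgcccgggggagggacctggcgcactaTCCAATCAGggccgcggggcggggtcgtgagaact
ZNF823: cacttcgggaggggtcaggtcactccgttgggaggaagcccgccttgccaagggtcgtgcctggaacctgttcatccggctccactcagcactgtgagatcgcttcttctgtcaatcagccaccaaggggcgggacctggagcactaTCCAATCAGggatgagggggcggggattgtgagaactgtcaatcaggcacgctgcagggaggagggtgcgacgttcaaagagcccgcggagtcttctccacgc
ZNF69: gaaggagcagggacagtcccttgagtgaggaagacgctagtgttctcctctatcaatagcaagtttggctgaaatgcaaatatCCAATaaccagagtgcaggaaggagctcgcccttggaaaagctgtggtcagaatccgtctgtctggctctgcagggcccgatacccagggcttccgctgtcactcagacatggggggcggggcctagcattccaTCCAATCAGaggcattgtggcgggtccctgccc
ZNF585B: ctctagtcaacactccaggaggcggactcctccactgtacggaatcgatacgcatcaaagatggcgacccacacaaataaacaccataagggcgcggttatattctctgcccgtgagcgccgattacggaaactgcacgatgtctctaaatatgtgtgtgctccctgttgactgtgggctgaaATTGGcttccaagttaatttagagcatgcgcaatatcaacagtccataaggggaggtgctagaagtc
ZNF626: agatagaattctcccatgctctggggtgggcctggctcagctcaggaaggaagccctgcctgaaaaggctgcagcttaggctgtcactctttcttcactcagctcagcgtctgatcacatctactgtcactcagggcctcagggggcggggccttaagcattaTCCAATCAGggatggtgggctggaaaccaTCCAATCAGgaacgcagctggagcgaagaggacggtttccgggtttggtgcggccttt
The printed bases of ZNF835 lie at chr19:56671758-56672007 on the minus strand, ZNF441 at chr19:11766750-11766999 (plus) and ZNF823 at chr19:11738947-11739196 (minus). Those of ZNF69 lie at chr19:11887532-11887781 (plus), ZNF585B at chr19:37210537-37210786 (minus) and ZNF626 at chr19:20661572-20661821 (minus). The first 3 were covered less in knockout libraries and the last 3 more, as described further on. These bases were under a peak in 6 of 6 scramble libraries for ZNF835, ZNF441, ZNF823 and ZNF626, and in 0 of 6 for ZNF69 and ZNF585B.

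A stretch with the CCAAT box recurred in the family. TCCAATCAG, searched on both strands over 250 bases before to 50 after the start, was found in 46 of 179 promoters (25.7%). It was found in 8.89% of 180 promoters of ZNF-numbered genes elsewhere, 0.346% of 868 other promoters of chromosome 19 and 1.03% of all 13792. The stretch was chosen after reading the printed promoters, and it contains CCAAT, so the searches overlap. CCAAT alone was in 53.6% of the family's promoters and 37.1% of all. Among the printed ones, TCCAATCAG begins 35 bases before the start of ZNF441, 103 before that of ZNF823, 33 before that of ZNF69, and 87 and 58 before that of ZNF626. It occurs in genes covered less and in genes covered more in the knockout. It was in 24.0% of the promoters covered in all 12 libraries and in 35.7% of the 14 covered in none. Tandem duplicates share sequence by descent, so these promoters are not independent.

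The C/EBP pattern TTGCNNAA, on both strands, was in 5 of the 179 promoters (2.79%) and 8.47% of all. Few genes whose coverage differed by genotype at the threshold used below had a usable promoter. The pattern was in 0 of 5 such promoters of genes covered less in the knockout and 0 of 3 of genes covered more. At a share of 2.79% in the family, so few promoters cannot show a lack of the pattern. The glucocorticoid response pattern, GNACA and TGTNC with 3 free bases between them, was in 0 of 179 and 0.268% of all. A missing match says only that these letters are not in the window. The median GC content of the 179 promoters was 60.0%, against 62.7% for all. The median number of CpG dinucleotides in 300 bases was 20, against 22.

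Coverage varied along the chromosome. With a new cluster begun wherever consecutive starts were more than 1 Mb apart, the 246 genes fell into 16 clusters, 9 of which held at least 5 genes and 235 genes in all. All 5 genes of the cluster at 2.8 to 2.9 Mb, among them ZNF554, were covered in every library. The largest cluster, 59 genes at 55.5 to 58.5 Mb near the long-arm end, had 51 covered in all 12 libraries (86.4%). In the cluster at 36.2 to 37.8 Mb the count was 22 of 26 (84.6%). The lowest share among the larger clusters was 14 of 25 (56.0%) at 11.5 to 12.6 Mb, where 7 genes were covered in none. The largest short-arm cluster, 37 genes at 19.7 to 24.1 Mb, had 26 covered in all 12 libraries. Its median covered length was 773 bp, against 1138 bp in the cluster at 55.5 to 58.5 Mb.

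The 5 members with the longest mean coverage all lay in the cluster at 55.5 to 58.5 Mb. ZNF581 (chr19:55635003-55645623) had 5865 bp on average over the 12 libraries, with a range of 5296 to 6761 bp. ZNF580 (chr19:55641002-55643470), which lies inside the span of ZNF581 and shares its peaks, had 4922 bp and ranged from 4655 to 5117 bp. ZNF787 followed with 3917 bp, ZNF524 with 3664 bp and ZNF324 with 3358 bp. The ranges of ZNF581 and ZNF580 met no other among the 5. Those of ZNF787 (3700 to 4438 bp), ZNF524 (3451 to 3816 bp) and ZNF324 (1993 to 4289 bp) overlapped, so the order of these genes is not resolved. ZNF554 (1600 to 4091 bp) and ZNF709 (2935 to 3190 bp), in other clusters, overlapped ZNF324. Which genes fill the lower of the 5 places is thus not resolved either. None of the 5 differed between genotypes at the threshold used below.

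Some members with a studied role, chosen after their values were seen, were covered throughout. ZNF91, a KRAB protein that silences SVA retrotransposons, had 1180 ± 81 bp in scramble and 1158 ± 28 bp in knockout libraries (SD, n = 6 each). ZNF274, which binds the zinc finger genes themselves and recruits SETDB1 there, had 1974 ± 532 bp and 1806 ± 125 bp. ZNF473, which acts in the 3′ end processing of histone transcripts, had 1558 ± 88 bp and 1503 ± 54 bp. The genotypes overlapped at all 3 genes. With windows of 25 kb and with the whole gene, ZNF91 did differ between genotypes at the threshold used below, averaged over both treatments. ZNF808 had 2453 ± 115 bp and 2568 ± 276 bp, and ZNF568 766 ± 122 bp and 834 ± 123 bp. By contrast the imprinted gene ZNF331 and ZNF536, which is known from neurons, were listed at 0 in all 12 libraries. ZNF541, a gene of male germ cells, had short coverage in 11 libraries, with 100 ± 75 bp in scramble and 116 ± 40 bp in knockout.

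No member was called higher or lower with dexamethasone. Differences were tested with limma on log2(covered bp + 500) over all 14708 genes covered in at least 3 libraries, 213 of them members, and called at a Benjamini-Hochberg adjusted p under 0.05. In scramble cells 0 of 213 members were called, against 0.102% of all tested genes, and in knockout cells 0 of 213 against 0.102%. The average of both drug effects gave 0 of 213 against 0.136%, and the difference between them, the interaction, 0 of 213 against 0.0272%. The unadjusted p from limma was under 0.05 for 7, 12, 12 and 10 members in the same order. The share among all tested genes was 5.77%, 6.23%, 7.06% and 4.64%. Limma without its trend and robust options also called 0 members in each. The median log2 difference of the members was 0.029 in both genotypes, and over all tested genes 0.024 in scramble and 0.029 in knockout cells. A member's difference had a median standard error of 0.12, so small shifts in single genes would not be seen.

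Members with the smallest p among those not called are given by their values. ZNF234 had 1393, 1011 and 1451 bp in scramble cells with DMSO and 712, 650 and 575 bp with dexamethasone. In knockout cells it had 1190, 1173 and 1351 bp with DMSO and 945, 1235 and 780 bp with dexamethasone. The scramble groups did not overlap, as was true of 3.13% of tested genes in the lower direction, and the knockout groups did. Its log2 difference was −0.62 (SE 0.11) in scramble cells, with an adjusted p of 0.11 by limma. ZNF728 had 495, 366 and 606 bp in scramble cells with DMSO and was listed at 0 in the 3 with dexamethasone (limma adjusted p = 0.23). In knockout cells ZNF728 was covered in 1 library with DMSO, at 284 bp. ZNF223 was covered in the 3 scramble libraries with DMSO, at 1445, 1352 and 1052 bp, and in 1 of 3 with dexamethasone, at 971 bp. In knockout cells ZNF223 had 407 bp in 1 of 3 DMSO libraries and 270, 366 and 459 bp with dexamethasone. These peaks were weak. Their −log10 q was 0.68 to 2.63 at ZNF728 in scramble libraries and at most 2.78 at ZNF223. The ZNF234 peak at its lower-coordinate end, absent from scramble libraries with dexamethasone, had 1.43 to 2.94 in those with DMSO. The lowest value in a list was 0.523 to 0.535. A peak this weak can drop out of a list without a large change. ZNF223 had the smallest p of the interaction among members that leaned higher, with a log2 value of 1.85 (SE 0.58) and a limma adjusted p of 0.89. For ZNF14, ZNF581 and ZNF587B, which leaned higher in scramble cells, the log2 differences were 0.32, 0.13 and 0.48, with limma adjusted p-values of 0.71, 0.82 and 0.89.

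In knockout cells the smallest p belonged to ZNF791 and ZNF490, neighbours that share a start region and have the same values. They had 1743, 1467 and 1619 bp with DMSO and 1820, 4016 and 3920 bp with dexamethasone. In scramble cells they had 1671, 1662 and 1479 bp with DMSO and 1575, 1530 and 1565 bp with dexamethasone. Only replicates 2 and 3 of the knockout libraries with dexamethasone stood apart, and replicate 1 was near the other groups. Replicates 2 and 3 each listed 1 joined peak where every other library listed 2 separate peaks, of 1103 and 717 bp in replicate 1. The greater length thus includes the bases between the 2 peaks. The joined peaks had a fold enrichment of 3.81 and 4.35, against 5.29 and 2.50 for the separate peaks of replicate 1. The log2 difference in knockout cells was 0.81 (SE 0.21), with a limma adjusted p of 0.49. Without replicate 1 it was 1.12 with an adjusted p of 0.0015, and ZNF791 and ZNF490 were then the 2 members called for the drug in knockout cells, for the average drug effect and for the interaction. ZNF846 leaned higher at 0.55 (limma adjusted p = 0.59). ZNF227, ZNF737 and ZNF154 leaned lower at −0.41, −0.31 and −0.71, with limma adjusted p-values of 0.73, 0.73 and 0.77.

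Covered length differed between the genotypes at 13 members. Averaged over both treatments, 4 members were called higher in the knockout and 9 lower, which is 6.1% of the 213 tested against 6.44% of all tested genes (3.57% higher and 2.87% lower). The share is near the background, so the number of calls is not a result about the family. The log2 differences of the called members ran from −1.68 to 0.90. Over the 213 members their median was −0.023, against −0.005 over all tested genes, with 84 above 0 and 129 below. After normalisation the 6 libraries of each genotype did not overlap at 4 members higher and 8 lower, which all tested genes did in 2.48% and 2.4%. Within DMSO, 2 members were called higher and 4 lower, or 2.82%, against 3.03% of all tested genes (1.53% higher and 1.5% lower). Within dexamethasone the counts were the same, 2 and 4, against 3.65% of all (2.01% higher and 1.64% lower). In both treatments ZNF43, ZNF730 and ZNF835 were called lower and ZNF69 higher. Some calls within 1 treatment were lost in the 12 fits that each left out 1 library. ZNF729 within dexamethasone, at a limma adjusted p of 0.0499, was lost in 9 of them, and ZNF585B within DMSO in 4. Within dexamethasone ZNF69 was lost in 2 and ZNF626 in 1. The other calls within 1 treatment held in all 12.

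**Figure D3:**
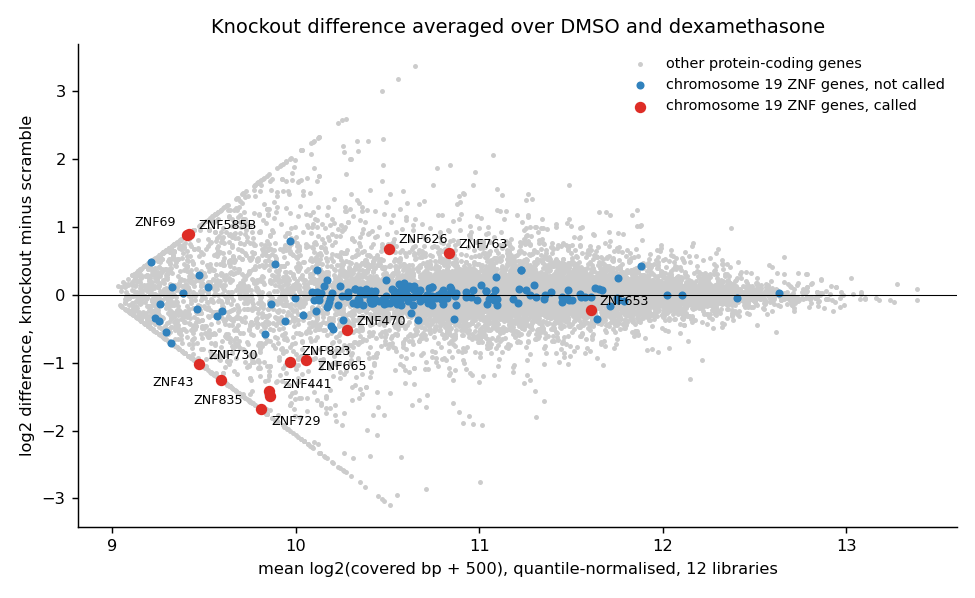
Log2 difference between knockout and scramble libraries, averaged over DMSO and dexamethasone, against the mean log2(covered bp + 500) of the 12 libraries. Grey points are other tested genes, blue points members that were not called and red points the 13 called members. The straight edges are genes with no peak in 1 genotype, among them ZNF43, ZNF729, ZNF730, ZNF69 and ZNF585B.

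At 3 members the peak was present in every scramble library and in no knockout library. Over all 19974 genes this pattern was met by 0.491%. ZNF43 (chr19:21804946-21852065) had 741, 859 and 731 bp with DMSO and 718, 700 and 599 bp with dexamethasone in scramble cells, and was listed at 0 in the 6 knockout libraries. The peak lay at the higher-coordinate end of the gene and was well above the calling threshold, with −log10 q of 7.96 to 13.3 and a fold enrichment of 5.91 to 7.20. Its fitted log2 difference was −1.26 (SE 0.10, limma adjusted p = 3.9e-05). Because the knockout is at 0, the size of this and the next values depends on the 500 bp added before the logarithm. ZNF730 had 562, 422 and 528 bp with DMSO and 544, 630 and 616 bp with dexamethasone, and 0 in the 6 knockout libraries (−1.02, SE 0.11, limma adjusted p = 0.00027). The ZNF730 peak was weaker, with −log10 q of 1.97 to 5.57. ZNF729 had 2412, 822 and 682 bp with DMSO and 672, 2162 and 858 bp with dexamethasone, and 0 in the 6 knockout libraries (−1.68, SE 0.28, limma adjusted p = 0.0054). A peak at the lower-coordinate end of ZNF729 was present in all 6 scramble libraries, and a wider one 3408 bp further in, present in 2 of them. These 2 libraries are the high values.

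ZNF835 and ZNF441 kept a peak in 1 of 6 knockout libraries, and ZNF823 in 3 of 6. ZNF835 had 1047, 1174 and 1048 bp with DMSO and 1097, 1231 and 729 bp with dexamethasone in scramble cells. In knockout cells it had 587 bp in 1 DMSO library and 0 in the other 5 (−1.50, SE 0.17, limma adjusted p = 0.00037). That remaining peak lay 310 bp inside the gene, off the promoter printed above. ZNF441 had 1404, 915 and 1110 bp with DMSO and 812, 871 and 1062 bp with dexamethasone, and in knockout cells 441 bp in 1 dexamethasone library (−1.42, SE 0.19, limma adjusted p = 0.0014). ZNF823, next to ZNF441, had 990, 782 and 830 bp with DMSO and 1034, 871 and 1018 bp with dexamethasone. Its knockout libraries held 0, 782 and 528 bp with DMSO and 0, 479 and 0 bp with dexamethasone (−0.99, SE 0.24, limma adjusted p = 0.040). The genotypes did not overlap at ZNF835 and ZNF441 and touched at ZNF823. The call of ZNF823 was lost in 10 of the 12 fits that left out 1 library, with adjusted p-values up to 0.097 in limma. These left out any scramble library, or replicate 1 or 3 of either knockout group.

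Smaller losses were found at ZNF665, ZNF470 and ZNF653. ZNF470 kept its start peak in all libraries but over a shorter stretch. It had 1131, 924 and 1066 bp with DMSO and 966, 896 and 934 bp with dexamethasone in scramble cells, and 800, 391 and 680 bp and 502, 379 and 506 bp in knockout cells. The genotypes did not overlap, and the fold enrichment of the peak was 4.32 to 6.00 in scramble and 3.03 to 4.70 in knockout libraries. The difference was −0.52 (SE 0.12, limma adjusted p = 0.024), and the call was lost in 5 of the 12 fits without 1 library, with an adjusted p of up to 0.0593. These left out replicate 1 or 3 of scramble with DMSO, replicate 2 or 3 of scramble with dexamethasone, or replicate 2 of knockout with DMSO. ZNF665 had 951, 527 and 1434 bp with DMSO and 1583, 1013 and 599 bp with dexamethasone in scramble cells, and 514, 496 and 513 bp and 0, 450 and 0 bp in knockout cells. The lowest scramble library thus lay just above the highest knockout library, and the log2 difference was −0.95 (SE 0.22, limma adjusted p = 0.034). A peak at the higher-coordinate end of ZNF665 was present in 6 scramble and 4 knockout libraries. In 4 scramble libraries and no knockout library, ZNF665 also had a weak peak at least 3258 bp outside its lower-coordinate end (−log10 q of 0.80 to 1.66). Its call was lost in 9 of those 12 fits, with an adjusted p of up to 0.081, and held only without replicate 2 of scramble with DMSO, replicate 3 of scramble with dexamethasone or replicate 2 of knockout with dexamethasone. ZNF653 fell by 0.23 (SE 0.05, limma adjusted p = 0.015), from 2831 ± 104 bp to 2430 ± 154 bp (SD, n = 6 each), and the genotypes did not overlap. The call was lost under 4 processing alternatives, with an adjusted p of up to 0.52. A weak peak at least 4336 bp outside the lower-coordinate end of ZNF653 was present in 6 scramble but only 3 knockout libraries (−log10 q of 0.66 to 3.13). It was 366 to 677 bp wide in scramble and 296 to 461 bp in knockout libraries, so its absence from some knockout libraries enters the difference. A peak nearer that end and the strongest peak, over the higher-coordinate end, were present in 6 scramble and 6 knockout libraries. The strongest peak stood at a fold enrichment of 4.80 to 6.00 in scramble and 5.26 to 6.04 in knockout libraries.

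**Figure D4:**
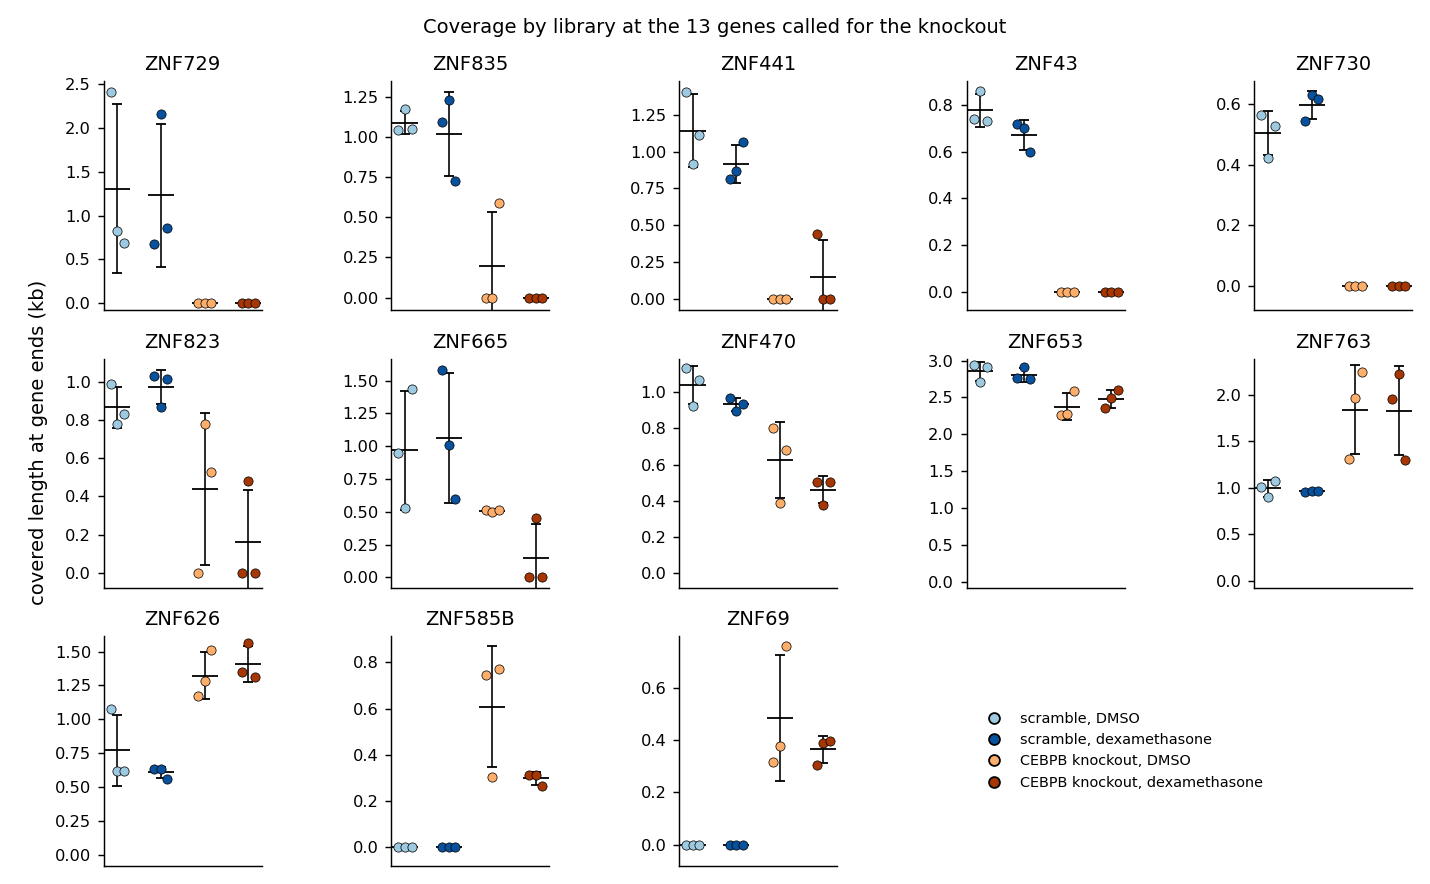
Covered length in kb by library at the 13 members called for the knockout, ordered from the greatest loss to the greatest gain. Points are libraries, and bars give the mean and SD of 3 libraries of a group. ZNF43, ZNF729 and ZNF730 are at 0 in every knockout library, and ZNF585B and ZNF69 are at 0 in every scramble library.

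The 4 members called higher gained weak peaks. ZNF585B and ZNF69 were covered in all 6 knockout and no scramble libraries, a pattern met by 0.295% of all 19974 genes. ZNF585B had 747, 305 and 771 bp with DMSO and 313, 313 and 265 bp with dexamethasone in knockout cells (0.89, SE 0.14, limma adjusted p = 0.0038). The peak lay on the promoter printed above, with −log10 q of 1.40 to 5.37. The neighbour ZNF585A had 406 bp on average in scramble libraries and was not called (0.45, limma adjusted p = 0.29). ZNF69 had 317, 379 and 761 bp with DMSO and 307, 389 and 399 bp with dexamethasone in knockout cells (0.90, SE 0.11, limma adjusted p = 0.00086). This peak did not lie on the promoter of ZNF69, which was under no peak in any library. It lay 827 bp past the far end of that gene, at chr19:11981049-11981976, with −log10 q of only 0.62 to 1.86.

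The same peak entered the value of ZNF763, since it lay 432 bp past the end of that gene too. ZNF763 had 1010, 897 and 1071 bp with DMSO and 954, 962 and 962 bp with dexamethasone in scramble cells, and 1310, 1962 and 2245 bp and 1959, 2229 and 1296 bp in knockout cells (0.61, SE 0.11, limma adjusted p = 0.010). Its own start peak was present in all 12 libraries, 897 to 1071 bp wide in scramble and 897 to 1840 bp wide in knockout libraries. ZNF69 and ZNF763 are thus not separate observations. ZNF626 had 1076, 618 and 620 bp with DMSO and 631, 631 and 560 bp with dexamethasone in scramble cells, and 1175, 1282 and 1511 bp and 1352, 1561 and 1312 bp in knockout cells (0.68, SE 0.10, limma adjusted p = 0.0021). A second peak 3055 bp upstream of its start was found in 6 of 6 knockout libraries and 1 of 6 scramble libraries. At the start itself the fold enrichment was 6.08 to 7.90 in scramble and 2.99 to 6.23 in knockout libraries. Covered length and peak height thus leaned in opposite directions at ZNF626, and the heights were not tested.

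The losses at ZNF43, ZNF729 and ZNF730 fell in 1 stretch of the largest short-arm cluster. From ZNF43 to ZNF730 there were 11 members over 1.34 Mb. Of these, 2 (ZNF257 and ZNF98) were covered in all 12 libraries and 3 (ZNF676, ZNF99 and ZNF723) in none. The other 6 were all covered in more scramble than knockout libraries. These counts concern the gene ends alone. With the whole gene counted, ZNF676 was called for the knockout within DMSO, within dexamethasone and on average. ZNF492 was covered in 5 of 6 scramble libraries, at 267 to 552 bp, and in 0 of 6 knockout libraries. ZNF208 was covered in 2 of 6 and 0 of 6, and ZNF728 in 3 of 6 and 1 of 6. ZNF257 and ZNF98 lie inside the stretch, with members covered in fewer knockout libraries on both sides of each. ZNF98, between ZNF729 and ZNF492, had 934 bp on average in scramble libraries, and its log2 difference was −0.11 (limma adjusted p = 0.58). The members on either side of the stretch, ZNF100 and ZNF724, were covered in all 12 libraries, with differences of −0.10 and −0.02 (limma adjusted p = 0.52 and 0.83). The stretch was picked after its values were seen, so it carries no test.

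**Figure D5:**
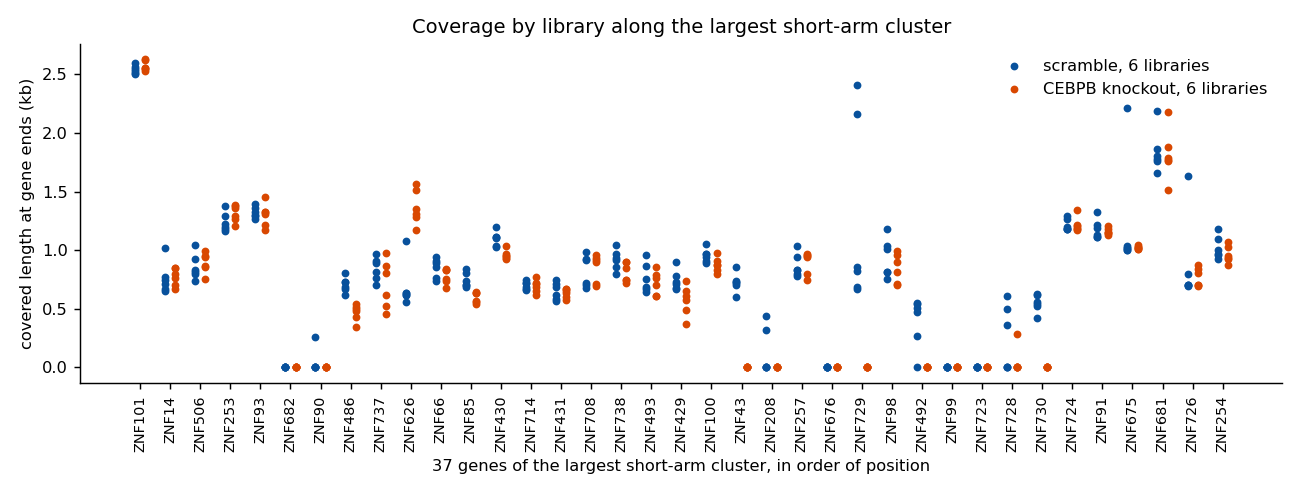
Covered length in kb by library for the 37 members of the cluster at 19.7 to 24.1 Mb, in order of position. Blue points are the 6 scramble libraries and orange points the 6 knockout libraries. Between ZNF43 and ZNF730 several members have points above 0 in scramble libraries alone, while ZNF257 and ZNF98 among them are covered in both genotypes.

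Of the 31 members covered in 1 to 11 libraries, 22 (71.0%) were covered in more scramble than knockout libraries, 8 (25.8%) in more knockout libraries and 1 in equal numbers. Over all 3365 genes covered in 1 to 11 libraries the shares were 47.9% and 40.5%. The 6 of the stretch from ZNF43 to ZNF730 are among the 22, and outside it the counts were 16 and 8 of 25. The direction also varied by cluster. More were covered in scramble libraries at 19.7 to 24.1 Mb (7 against 0), 51.6 to 53.6 Mb (6 against 1) and 55.5 to 58.5 Mb (4 against 0). The same held at 34.7 to 35.0 Mb (1 against 0). The counts were 2 against 2 at 11.5 to 12.6 Mb and at 43.5 to 45.1 Mb. They went the other way at 36.2 to 37.8 Mb (0 against 2) and 47.5 to 48.3 Mb (0 against 1). None of these counts was tested. Outside the stretch just described they included ZNF30, with 4 of 6 scramble and 1 of 6 knockout libraries, and ZNF347 with the same counts. ZNF610 went the other way, with 0 of 6 and 4 of 6. Of 21 neighbours of the 13 called members that were not called themselves, 11 were covered in all 12 libraries, 6 in none and 4 in some. ZNF441 and ZNF823 were the 2 called members that were neighbours of each other.

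Genes for the repressor complex that KRAB proteins recruit, 30 in all, were given the same tests. Of these, 28 were covered in all 12 libraries, and ZFP57, an imprinting factor, in none. UHRF1, which helps to maintain DNA methylation, was covered in 9. TRIM28 had 2391 ± 470 bp in scramble and 2223 ± 93 bp in knockout libraries, and SETDB1 907 ± 264 bp and 887 ± 304 bp (SD, n = 6 each). The genotypes overlapped at both. Of the 29 tested, 0 were called by limma for the drug in scramble cells, in knockout cells or on average, against 0.102%, 0.102% and 0.136% of all tested genes. An unadjusted p under 0.05 was found for 1, 1 and 2 of them. For the averaged knockout effect 1 of 29 was called, against 6.44% of all tested genes. The 1 called gene, HDAC1, a histone deacetylase of repressor complexes, fell from 4009 ± 124 bp to 2663 ± 813 bp (−0.59, SE 0.14, limma adjusted p = 0.032). The genotypes overlapped at HDAC1, and it was not called within DMSO or within dexamethasone alone (limma adjusted p = 0.10 and 0.33). The median log2 difference of the 29 genes was −0.061 within DMSO (3 above 0 and 26 below) and −0.004 within dexamethasone (13 and 16), where all tested genes had −0.009 and −0.001. The lean of the 29 as a set was not tested. Limma called 0 of 29 within DMSO and 0 of 29 within dexamethasone, against 3.03% and 3.65% of all tested genes.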

How the data were processed

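H3K27ac CUT&RUN was done on 100000 cells per assay, per the labels. Reads were aligned with Bowtie2 2.4.2 and peaks called with MACS3 3.0 on hg38, per the submitters' processing notes. No control library is named there. The deposited files were 12 broad peak lists, 1 per library, with 0-based start and end positions (unit other). For each peak the deposited lists give a ratio, the fold enrichment over background, and the −log10 of its p-value and q-value. They hold no read counts, so no counting interval or depth could be given, and peak detection may differ between libraries with depth.

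Peak bases within 5 kb of either gene end were summed for 19974 RefSeq genes (GRCh38.p14, the hg38 assembly). Genes covered in at least 3 libraries (14708) were analysed as log2(bp + 500), quantile-normalised, with limma 3.58.1 in R 4.3.3 (1 fit of all 4 groups with 8 residual degrees of freedom, eBayes with trend and robust options). In each of 7 contrasts, Benjamini-Hochberg adjustment ran over the 14708 genes. Results were collated in Python 3.11.15 with NumPy 2.4.6, pandas 2.3.3 and Matplotlib 3.10.9. The code was tested on simulated data; there, more calls were false than the adjusted p allows, so single calls near the threshold need care.

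The members and gene lists were chosen with earlier results of these data known. All called members were named. If a direction had fewer than 3 calls, its 3 members with the smallest p were named and said not to be called. Also named were the 5 of longest coverage, those covered in 1 genotype alone, neighbours of called members, and CEBPB. A grouping of members by KRAB boxes and finger number was planned and not made, since no protein sequences were used here. Genes of the plasma cell, T cell, mature B cell, myeloid and stromal or epithelial lists checked the cell type: peaks were found in all 12 libraries at 11 of 12, 2 of 6, 2 of 6, 2 of 6 and 4 of 6 of their genes.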

Additional observations from a re-analysis of the deposited data

How the results depend on the processing

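The alternatives changed the log offset, the scaling, the gene filter, the window, the peaks used and the libraries, and limma was run without its trend and robust options. Over the 21 to 23 alternatives that gave a value for each named member's test, 1078 values kept direction and side of the threshold, 74 lost the call, 9 gained it and 4 reversed. The reversals were in members not called: ZNF14 with windows of 25 kb (−1.0 for the drug in scramble cells, 0.28 for the interaction), ZNF846 with only peaks of −log10 q of at least 2 (−0.12 for the drug in knockout cells), and ZNF154 at equal covered length (0.20 for the drug in knockout cells). ZNF729, ZNF835, ZNF441, ZNF43 and ZNF730 kept their averaged knockout call under all 23. ZNF69 lost it with windows of 25 kb (0.30), the whole gene (0.26) and equal covered length (0.53), ZNF585B with windows of 25 kb (0.38) and strong peaks (0.52), and ZNF626 with strong peaks (0.46). ZNF69 left no value with strong peaks, since none of its peaks reaches that level. ZNF763 lost it with windows of 25 kb (0.30) and strong peaks (0.32). ZNF653 lost it when scaled to the median library total (−0.20), with windows of 25 kb (−0.35), the whole gene (−0.29) and equal covered length (−0.19). ZNF823 and ZNF665 each lost it under 14 of 23, and ZNF470 under 5, all 5 without 1 library. The cause was not tested.

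For the drug in knockout cells, strong peaks alone called 2 members, ZNF528 and ZNF880, among 28 genes, and ZNF528 was the 1 called for the average drug effect. Leaving out 1 library in turn gave 0 to 2 members called for the drug in knockout cells, for the average drug effect and for the interaction, with 2 only without knockout replicate 1 with dexamethasone. The knockout calls within DMSO rose from 6 to 10 with the whole gene, while those over all genes rose from 445 to 947. Within dexamethasone they rose from 6 to 11 with windows of 25 kb, 12 with the whole gene and 13 with strong peaks, while those over all genes rose from 537 to 989, 1013 and 683. Of the 13, 4 were among the 6. Averaged over both treatments, 15 members were called with windows of 25 kb and 18 with the whole gene, among 2096 and 1849 genes. ZNF91 and ZNF254 were added by both settings, and ZNF676 by the whole gene. ZNF254 was also added by both settings within DMSO and within dexamethasone. Members covered in 1 genotype alone fell from 5 to 3 when at least 500 bp or strong peaks were required, and to 2 with windows of 25 kb. The number covered in all 12 libraries, 186, was 166 to 207 under alternatives added after seeing the data.

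The labels do not say whether replicate numbers pair the libraries, and weak correlations cannot show that they do not. Correlations of deviations within 18 same-numbered pairs were −0.034 to 0.051, and 6 of 12 libraries correlated best with their own number. With a replicate block the averaged knockout effect called 12 members in place of 13, and the calls of ZNF665 (averaged, −0.95, adjusted p = 0.073) and ZNF729 (within dexamethasone, −1.69, adjusted p = 0.10) were lost. Peak lists without counts cannot show whether a missing peak reflects less mark or less depth.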
